A study of Mus musculus with 12 samples.

Results

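Interferon-stimulated genes are switched on when a cell senses an interferon. The set described here holds 35 such genes, known targets of the pathway. They were chosen by name, with earlier results of these data known. Of them, 34 were matched by symbol among the 32285 gene rows of the deposited matrices. The remaining member, Mx1, was not analysed here. The matched members were sorted by role into a type I core (Ifit1, Ifit2, Ifit3, Ifit3b, Oas1a, Oasl1 and Oasl2, 7 genes), a gamma-type core (Gbp2, Gbp3, Gbp4, Gbp5, Gbp6, Gbp7, Igtp, Iigp1, Irgm1, Irgm2 and Ifi47, 11 genes), 4 transcription factors (Stat2, Irf1, Irf7 and Irf9), and 12 other effectors, sensors and feedback genes.

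The study, on the rejection of melanoma, profiled single cells of mouse tumours of lines that the labels name SCC35. The control group comprised lines 15 and 18, labelled as controls of a Mif knockout, and the other group comprised knockout (KO) lines 19 and 24, in which Mif, the gene of the cytokine macrophage migration inhibitory factor, was targeted. A deposited sheet gave each hashtag, an antibody with a DNA barcode that marks the cells of a tumour, its line, its letter and 1 of the days 0, 6, 10 or 16; the sources used here do not say what day 0 was, how the lines were cloned, or the age and strain of the mice. A hashtag of the line 18 library (33 counts) and another of the line 24 library (7117 counts) were left out. Each held under 0.1% of the hashtag counts of its library. The lines contributed 11 hashtags (line 15), 10 (line 18), 11 (line 19) and 10 (line 24). Of these 42 hashtags, 7 are of day 0 (3 control and 4 KO), and all are called tumours here for short. Besides them, 3 tumours named WT in the sheet, 1 each at days 6, 10 and 16, entered no test, since no label gives them a group.

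Type I interferons (the alpha and beta forms) bind a receptor made of Ifnar1 and Ifnar2, and signal through the kinases Jak1 and Tyk2 to a complex that holds Stat2 and Irf9 and binds the interferon-stimulated response element (ISRE). Interferon gamma, made mainly by T cells and NK cells, binds Ifngr1 and Ifngr2 and signals through Jak1 and Jak2 to factors that bind the gamma-activated site (GAS) and switch on Irf1. The Ifit and Oas families, which bind or sense viral RNA, are usually read as the type I arm, and the guanylate-binding proteins (Gbp) and immunity-related GTPases (Igtp, Iigp1, Irgm1, Irgm2, Ifi47), which attack the vacuoles of intracellular microbes, as the gamma arm. The arms overlap, and many members answer to both interferons.

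Promoter stretches are shown for members of each role whose values are described below. RefSeq promoter windows (250 bases before to 50 after a gene's start, build GRCm38.p6) were found for 26 members; Gbp4, Gbp6, Iigp1, Usp18, Rtp4, Parp14, Zbp1 and Ifi204 had no entry. An ISRE core, searched on both strands as GAAANNGAAA, was present in the windows of 16 of the 26 members, against 3.44% of all 32851 windows. It was found in 4 of 7 type I core genes, 7 of 8 gamma-type genes with a window, 1 of 4 transcription factors and 4 of 7 other members. A GAS, searched as TTCNNNGAA, was found in 9 of the 26, against 8.30% of all windows. The stretches are given 5′ to 3′ on the gene's strand, with the matches in capitals. Where an ISRE and a GAS overlap, the capitals run through both.

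Ifit1 (chr19:34640765-34640833, plus strand), an RNA-binding protein of the type I core, held ISRE cores starting 104 bases before the gene's start, and Ifit3 (chr19:34583353-34583436, plus strand) starting 156 bases before. The Ifit3 stretch and that of its near copy Ifit3b were identical over 84 bases.
Ifit1: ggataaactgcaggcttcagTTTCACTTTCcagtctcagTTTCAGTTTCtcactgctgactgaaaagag
Ifit3: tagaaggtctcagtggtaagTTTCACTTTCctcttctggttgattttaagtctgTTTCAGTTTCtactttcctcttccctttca
Ifit2 (chr19:34550444-34550481, plus strand), the member that went against the others below, held a GAS 241 bases before its start and no ISRE core in this window.
Ifit2: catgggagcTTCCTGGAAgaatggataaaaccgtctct

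Of the gamma-type core, Gbp2 (chr3:142620584-142620633, plus strand) held an ISRE core 59 bases before its start, and Gbp7 (chr3:142530210-142530312, plus strand) held GAS and ISRE matches in a single stretch. Igtp (chr11:58199491-58199551) and Irgm2 (chr11:58214882-58214942), both on the plus strand, carried a GAS next to an ISRE core, and 59 of the 61 bases of their stretches were the same.
Gbp2: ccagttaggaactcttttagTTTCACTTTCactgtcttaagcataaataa
Gbp7: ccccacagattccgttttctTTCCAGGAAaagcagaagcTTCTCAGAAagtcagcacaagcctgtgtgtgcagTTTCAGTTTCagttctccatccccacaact
Igtp: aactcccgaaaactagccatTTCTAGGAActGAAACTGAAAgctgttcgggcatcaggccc
Irgm2: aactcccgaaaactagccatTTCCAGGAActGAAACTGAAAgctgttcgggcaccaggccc

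Irf1 (chr11:53769904-53769952, plus strand), a transcription factor switched on early by interferon gamma, held a GAS 90 bases before its start. Stat2 (chr10:128270256-128270305, plus strand) held an ISRE core 222 bases before its start. Bst2 (chr8:71537567-71537628, minus strand), which tethers budding virus particles to the membrane, held a GAS that runs into an ISRE core, and Isg15 (chr4:156200855-156200916, minus strand), a ubiquitin-like protein, held overlapping ISRE cores 78 bases before its start.
Irf1: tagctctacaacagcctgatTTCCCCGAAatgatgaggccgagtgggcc
Stat2: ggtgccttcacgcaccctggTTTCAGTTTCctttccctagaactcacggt
Bst2: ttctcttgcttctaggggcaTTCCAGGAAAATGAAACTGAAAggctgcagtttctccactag
Isg15: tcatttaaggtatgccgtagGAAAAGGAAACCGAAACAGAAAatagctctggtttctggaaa

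Levels are given as CPM, a gene's unique molecular identifiers (UMIs) scaled to 1000000 gene UMIs of that class in that tumour. The 6 libraries held 151385933 to 239699029 gene UMIs and 20935 to 35793 barcodes each; any pair of libraries shared 570 to 1503 passing barcodes. Cells were gated on marker UMIs into line cells, macrophages and T cells. Line cells had no Ptprc or T-cell UMI and few UMIs of other immune, endothelial or keratinocyte markers. The gate set no limit on fibroblast markers, so host fibroblasts could be among the line cells. The 4 fibroblast markers summed there to 18.8 to 52.5 CPM (control) and 12.8 to 49.1 CPM (KO) at days 6 to 16. At day 0 they summed to 3.11 to 14.3 CPM and 3.47 to 25.6 CPM. Their part in the results was not tested. Line cells numbered 58993 in 42 tumours (28505 in control and 30488 in KO tumours, 212 to 3255 a tumour), macrophages 13539 in 35 tumours and T cells 4471 in 32 tumours. Of the melanocytic markers, Tyr was at 0 in line cells throughout and the list summed to 6.65 to 23.7 CPM, so no marker identifies these cells as tumour cells. Mif itself in line cells lay between 1756 and 3108 CPM in the 21 control tumours, between 44.0 and 281 CPM in line 19 and between 231 and 760 CPM in line 24, with no overlap between the groups. Its log2 fold change in edgeR (log2 change from here on) was -3.01 (standard error, SE, 0.29; edgeR adjusted p 1.65e-10), and it was higher in line 24 than in line 19 by 1.86 (edgeR adjusted p 8.07e-08).

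The first comparison asked whether the members differed between KO and control line cells. Gamma-type genes were higher in KO line cells, with all 11 passing the test at log2 changes of 1.04 to 2.55 (median 1.5). All 12 other effectors, sensors and feedback genes also rose, by 0.50 to 1.51, as did 3 of the 4 transcription factors, while only 2 of the 7 type I core genes did (median 0.45). In all, 28 of 34 members were higher and 0 lower in edgeR's quasi-likelihood test with day as a term, against 25.1% of all 12866 genes tested higher and 24.7% lower. The members' median was 0.89 and that of all genes 0.00. Nearly all of this rested on line 24: without it 1 member was higher and 1 lower (median 0.24), with 2782 of all genes higher and 2777 lower. Other fits called fewer genes of any kind: with 1 sum per line, 0 members and 0 of all genes were called; with the 2 mixed libraries alone, 0 members, 113 genes higher and 61 lower; with library as a term, 0 members, 932 genes higher and 805 lower. The members' medians in these fits were 0.91, 0.95 and 0.65. Line is nested in group, so the p-values cover the spread between tumours of these 4 lines and no further.

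Of the gamma-type core, Gbp2 had a lowest, median and highest level of 2.49, 33.6 and 346 CPM in the 21 control tumours and 6.93, 62.6 and 449 CPM in the 21 KO tumours. The groups overlapped over most of their range, and the log2 change was 1.5 (SE 0.44, edgeR adjusted p 0.00482). Iigp1, a GTPase that loads onto parasite vacuoles, ran from 5.30 through 19.9 to 240 CPM in control and from 4.91 through 86.5 to 320 CPM in KO tumours, and rose by 1.92 (SE 0.50, edgeR adjusted p 0.00171). Gbp7 had a median of 23.6 CPM (9.47 to 107) in control and 36.2 CPM (10.7 to 132) in KO tumours, with a log2 change of 1.04 (SE 0.30, edgeR adjusted p 0.00417). Gbp4 showed the widest difference of all members: 0, 1.51 and 16.7 CPM in control against 0.542, 6.49 and 57.0 CPM in KO tumours, a log2 change of 2.55 (SE 0.58, edgeR adjusted p 0.000433). The remaining members rose by 1.24 (Gbp5), 1.30 (Gbp3), 1.46 (Irgm2), 1.49 (Irgm1), 1.73 (Igtp), 1.79 (Ifi47) and 2.01 (Gbp6). Gbp genes, Ifit3 with Ifit3b, and Oas1a belong to families with close copies. How the authors' counting treated reads that match several copies was not tested.

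In the type I core, Oasl2 and Ifit3 were the genes that passed. Oasl2, an OAS-like protein, had 8.68, 31.8 and 67.7 CPM (lowest, median, highest) in control and 11.8, 69.5 and 131 CPM in KO tumours, with a log2 change of 1.09 (SE 0.27, edgeR adjusted p 0.00109). Ifit3 had medians of 34.7 CPM (6.51 to 63.7) and 52.7 CPM (4.71 to 149), a log2 change of 0.69 (SE 0.29, edgeR adjusted p 0.0445). The groups overlapped for both. Ifit1, with 20.7, 57.3 and 97.0 CPM in control and 21.0, 72.6 and 178 CPM in KO tumours, had a log2 change of 0.30 (SE 0.20, edgeR adjusted p 0.206). Ifit2 was the one member with a negative value, -0.21 (SE 0.11, edgeR adjusted p 0.116): its control tumours lay between 10.2 and 30.3 CPM and its KO tumours between 12.1 and 39.5 CPM. Oasl1 (0.36), Oas1a (0.45) and Ifit3b (0.49) did not pass either.

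Among the transcription factors, Irf1 had 13.6, 107 and 221 CPM in control and 13.8, 132 and 349 CPM in KO line cells, and a log2 change of 0.69 (SE 0.25, edgeR adjusted p 0.0177). Stat2, part of the ISRE-binding complex, had medians of 17.8 CPM (4.09 to 43.4) and 36.2 CPM (9.97 to 73.3), with a log2 change of 1.0 (SE 0.23, edgeR adjusted p 0.00045). Irf9, which completes the ISRE-binding complex, rose by 0.75 (edgeR adjusted p 0.00075). Irf7, the amplifier of interferon alpha genes, did not pass, at 0.51 (SE 0.24, edgeR adjusted p 0.0711); its medians were 36.6 and 58.7 CPM. Of these 4, Irf1 turned to -0.11 when line 24 was left out.

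The other effectors included Bst2, with 280, 629 and 984 CPM in control and 318, 1333 and 2317 CPM in KO line cells (log2 fold change 0.87, SE 0.19, edgeR adjusted p 0.000211). Isg15 had medians of 176 CPM (71.5 to 318) in control and 412 CPM (58.5 to 753) in KO tumours, a log2 change of 0.91 (SE 0.23, edgeR adjusted p 0.00129). Ifi204, a DNA sensor, had medians of 44.6 and 70.8 CPM and rose by 0.53 (SE 0.15, edgeR adjusted p 0.00397). For all 3 the upper part of the KO range lay above every control tumour and the rest overlapped. Ifi44, a cytoplasmic antiviral protein, rose by 1.44 (SE 0.30, edgeR adjusted p 0.000142), and Zbp1, a sensor of left-handed nucleic acids that can start necroptosis, by 1.51. The feedback gene Usp18, which removes Isg15 from proteins and dampens the type I receptor, rose by 0.69, and the smallest rise that passed was that of Ifi35, 0.50 (edgeR adjusted p 0.0162).

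The KO lines did not behave alike. In line 24, 33 of 34 members were higher than in the control lines and 0 lower (median 1.34), against 31.3% of 13000 genes higher and 30.8% lower; Ifit2, at -0.04, was the exception. In line 19, Bst2 (0.60, SE 0.21, edgeR adjusted p 0.0174) and Rsad2, the radical-SAM enzyme viperin (0.57, SE 0.22, edgeR adjusted p 0.0294), were higher and Ifit2 (-0.31, SE 0.12, edgeR adjusted p 0.0399) was lower, against 23.5% and 21.5% of all genes; the members' median was 0.25. Without tumour A of control line 18 at day 10, which stood apart, 6 members were higher in line 19 and 0 lower (median 0.44). In that fit 3021 of all genes were higher and 2759 lower. The direct test between the KO lines gave 29 members higher in line 24 and 0 lower (median 1.15), against 28.7% and 28.0% of all genes. The 5 that did not pass were Rsad2 (0.14), Oas1a (0.18), Irf7 (0.20), Ifit2 (0.26) and Rtp4 (0.63). These line contrasts share the control tumours. No library held both KO lines, so line and library cannot be told apart in the direct test. Depth differed too: the median UMIs of line cells were 2578 to 5777 a tumour in line 24 and 5899 to 11250 in line 19.

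The levels showed how far line 24 stood from the rest. The sum of the gamma-type core in line cells had a median of 682 CPM in line 24, against 121 CPM (line 15), 151 CPM (line 18) and 103 CPM (line 19). Gbp4, an interferon-inducible GTPase, had a median of 22.9 CPM in line 24 and of 0.866 to 1.51 CPM in the other lines, and was higher in line 24 than in line 19 by 3.32 (SE 0.57, edgeR adjusted p 4.46e-06). Gbp6 lay between 18.9 and 78.2 CPM in line 24 and between 1.35 and 22.1 CPM in line 19, and Gbp6 in the control lines reached 29.1 CPM. Irf1 had a median of 253 CPM in line 24, against 128, 71.5 and 75.7 CPM in lines 15, 18 and 19. Stat2 in line 24 was never below 36.2 CPM, and its median in the other lines was 15.6 to 18.2 CPM. The type I core sum had medians of 424 CPM (line 24), 233 CPM (line 15), 199 CPM (line 18) and 156 CPM (line 19). Between the control lines, 0 members were higher in line 18 and 1 was lower (Oasl1, -0.77, SE 0.22, edgeR adjusted p 0.00771), against 11.2% and 13.0% of all genes; at an unadjusted p under 0.05 the counts were 1 and 4.

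**Figure D1:**
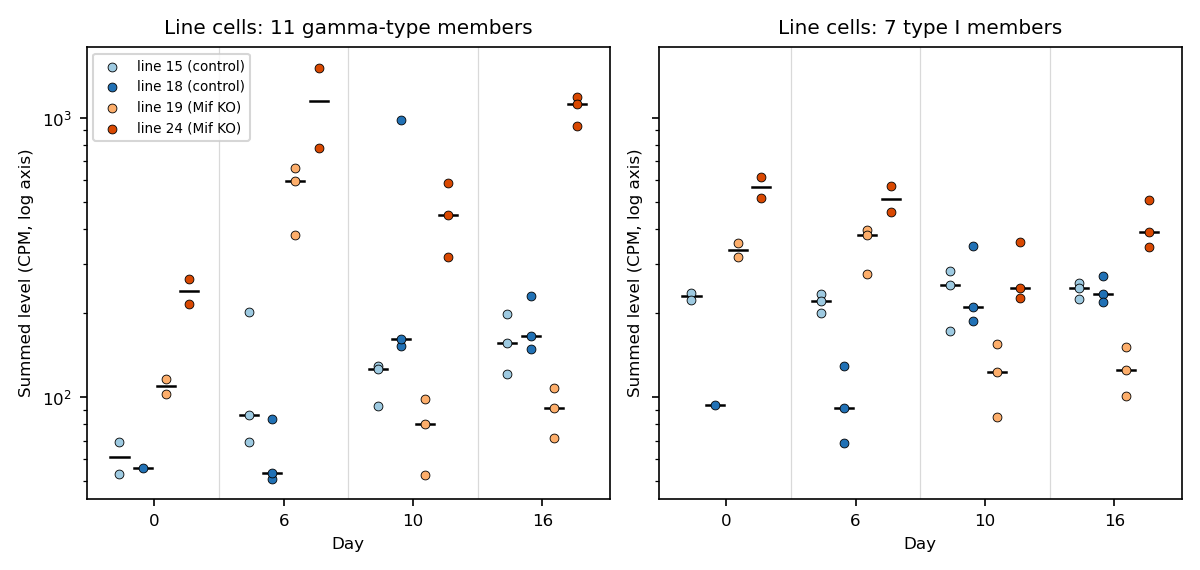
Summed CPM (log axis) of the 11 gamma-type genes and of the 7 type I core genes in line cells, by day, with a point for each tumour, coloured by line, and a bar at each median. Line 24 lies highest for the gamma-type sum at days 0, 6 and 16; line 19 comes next at day 6 (379 to 658 CPM), and tumour A of line 18 at day 10 reaches 976 CPM.

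The groups were also compared day by day; days 6, 10 and 16 were not tested against each other. At day 6, 31 of 34 members were higher in KO line cells and 0 lower (median 1.79), against 9.45% of 13376 genes higher and 9.55% lower, and the gamma-type core reached a median of 3.20. The exceptions were Ifit2 (0.33), Oasl1 (0.79, edgeR adjusted p 0.0938) and Irf1 (1.2, edgeR adjusted p 0.0697). Igtp at day 6 was 63.7, 78.5 and 41.7 CPM (line 19) and 62.8 and 147 CPM (line 24), against 7.03, 17.9 and 8.33 CPM (line 15) and 6.78, 3.69 and 4.09 CPM (line 18). The groups did not overlap for Igtp, whose log2 change was 3.34 (SE 0.67, edgeR adjusted p 0.00066). Gbp2 in the same tumours was 159, 172 and 102 CPM (line 19) and 201 and 449 CPM (line 24), against 14.5, 46.7 and 23.8 CPM (line 15) and 27.1, 17.2 and 12.1 CPM (line 18). Gbp4 had the largest change, 4.27 (SE 1.09, edgeR adjusted p 0.00543), from 0.151 to 4.52 CPM in the control and 6.49 to 55.7 CPM in the KO tumours. The count at day 6 was 31 without line 24 (1484 of all genes higher and 1580 lower). It was 34 without line 15 (865 and 801) and 7 without line 18 (612 and 818). The fit reported here had 1264 and 1278 of all genes.

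At day 10 the 0 members higher and 1 lower (Ifit2, -0.48, SE 0.17, edgeR adjusted p 0.0386) stood against 9.39% and 10.1% of all genes, with a median of 0.04; 0 members were higher at an unadjusted p under 0.05 as well, in edgeR. Gbp2 at day 10 was 22.8, 28.6 and 12.7 CPM (line 19), 109, 135 and 62.6 CPM (line 24), 33.6, 36.5 and 26.5 CPM (line 15) and 346, 52.3 and 46.8 CPM (line 18). Line 24 lay above line 15, and line 19 lay mostly below it. Without line 24, 0 members were higher and 14 lower (median -0.97), with 1455 of all genes higher and 1454 lower. Without line 19, 11 members were higher, with 2651 of all genes higher and 2703 lower. Leaving out tumour A of line 18 gave 0 members higher and 0 lower, with a median of 0.42 (1068 and 1109 of all genes). The fit reported here had 1256 and 1345 of all genes.

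At day 16 the members that rose were Gbp4 (3.13, SE 0.98, edgeR adjusted p 0.0224), Gbp6 (2.12), Igtp (2.09), Ifi47 (1.92), Irgm1 (1.69) and Rsad2 (0.81), and Ifit2 fell by 0.71 (SE 0.17, edgeR adjusted p 0.0033). These 6 higher and 1 lower compare with 9.18% and 9.01% of all genes; the members' median was 0.67. Gbp4 at day 16 was 49.4, 57.0 and 33.7 CPM (line 24), 0.737, 1.34 and 0.873 CPM (line 19), 4.54, 1.47 and 1.95 CPM (line 15) and 4.14, 2.43 and 1.62 CPM (line 18), so that line 19 lay below both controls. Ifit2 at day 16 was 12.9, 12.3 and 13.7 CPM in line 19 and 21.1, 15.1 and 17.7 CPM in line 24, and every KO tumour lay below the control range of 23.2 to 30.3 CPM. Without line 24 the count was 0 higher and 4 lower (1552 of all genes higher and 1423 lower). Without line 19 it was 29 higher (2479 and 2545 of all genes). Without line 15 (595 and 452) or without line 18 (834 and 1000) it was 0 higher. The fit reported here had 1228 and 1205 of all genes.

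At day 0 the share of members higher in KO line cells lay near that of all genes, with 3 control and 4 KO hashtags. In all, 9 of 34 members were higher and 0 lower (median 1.30, all genes 0.13), against 21.4% and 17.7% of all genes. They were Ifi44 (2.08, SE 0.71, edgeR adjusted p 0.0189), Ifit3 (1.70), Ifit3b (1.62), Usp18 (1.45), Stat2 (1.41), Bst2 (1.33), Ifit1 (1.29, SE 0.41, edgeR adjusted p 0.0113), Irf9 (1.28) and Ifi35 (0.94). Ifit1 at day 0 was 82.3 and 80.7 CPM (line 19) and 178 and 147 CPM (line 24), against 62.2 and 48.4 CPM (line 15) and 24.0 CPM (line 18). Bst2 at day 0 was 1792 and 2005 CPM (line 19), 2317 and 2309 CPM (line 24), 984 and 980 CPM (line 15) and 368 CPM (line 18). The groups did not overlap for either gene. None of the 11 gamma-type genes passed at day 0 (median 1.45, with 1 at an unadjusted p under 0.05 in edgeR). The count of 9 became 0 without line 18 (2264 of all genes higher and 2130 lower). It became 3 without line 24 (2580 and 2565) and 22 without line 19 (3204 and 3108). The fit reported here had 2856 and 2366. Without line 15 only 1 control hashtag remained at day 0, so no count is given.

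Whether the group difference in tumours differed from that at day 0 was tested directly. In that contrast 0 members were higher and 1 lower, Ifit1, whose difference shrank by 1.16 (log2 value -1.16, SE 0.44, edgeR adjusted p 0.0435), against 14.1% and 15.9% of all genes. The median over members was -0.31 and over all genes -0.11. Ifit1 was not called without line 15, without line 18, without line 24, without tumour A of line 18 at day 10, with RLE scaling or without the filter on low counts, and 0 members were higher whichever line was left out.

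Line and day together, a fit added after the tumour values had been seen, separated the KO lines further. Line 19 at day 6 had 33 members higher than the controls and 0 lower (median 1.82; 15.3% and 12.6% of 14242 genes), led by Iigp1 (3.33), Gbp4 (3.23) and Igtp (3.16). At day 10 the same line had 0 members higher and 27 lower (median -0.89; 15.1% and 13.0% of all genes), among them Gbp4 (-2.10), Gbp5 (-2.03), Iigp1 (-1.82), Gbp3 (-1.72) and Gbp2 (-1.60). Without tumour A of line 18 the 27 became 11 and the median -0.64, with 1904 of all genes higher and 1594 lower. At day 16 line 19 had 0 members higher and 13 lower (median -0.69; 15.5% and 12.6% of all genes), including Ifit3 (-1.05), Oasl2 (-1.05), Xaf1, a partner of an apoptosis inhibitor (-0.90), and Ifit2 (-0.88), with Gbp7 (-0.80) from the gamma-type core. Without tumour A of line 18 the 13 became 17 (2206 of all genes higher and 1786 lower). Without the filter on low counts 1 member was higher and 29 lower (2166 and 1795 of all genes). The fit reported here had 2205 and 1793 of all genes.

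Line 24 had members that were higher than in the controls at each of days 6, 10 and 16, although at day 10 tumour A of line 18 (976 CPM) exceeded every line 24 tumour (highest 585 CPM) in the gamma-type sum. All 34 members were higher at day 6 (median 2.19; 18.3% of all genes higher and 18.7% lower), with Gbp4 at 5.35 and Gbp6 at 4.49. At day 10, 18 members were higher and 0 lower (median 0.75, against 22.9% and 22.4% of all genes). Without tumour A of line 18, 24 members were higher, with 3211 of all genes higher and 2824 lower. At day 16, 30 were higher and Ifit2 (-0.50) was lower (median 1.34; 20.3% and 20.8% of all genes), with Gbp4 at 4.19, Gbp6 at 3.14 and Iigp1 at 3.13. Iigp1 at day 16 was 287, 308 and 281 CPM in line 24, and at day 10 it was 107, 157 and 93.8 CPM. Line 19 had Iigp1 at 140, 156 and 86.5 CPM at day 6 and at 10.6, 12.0 and 7.91 CPM at day 10, so its tumours of these days did not overlap. The difference between days within line 19 was not tested.

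**Figure D2:**
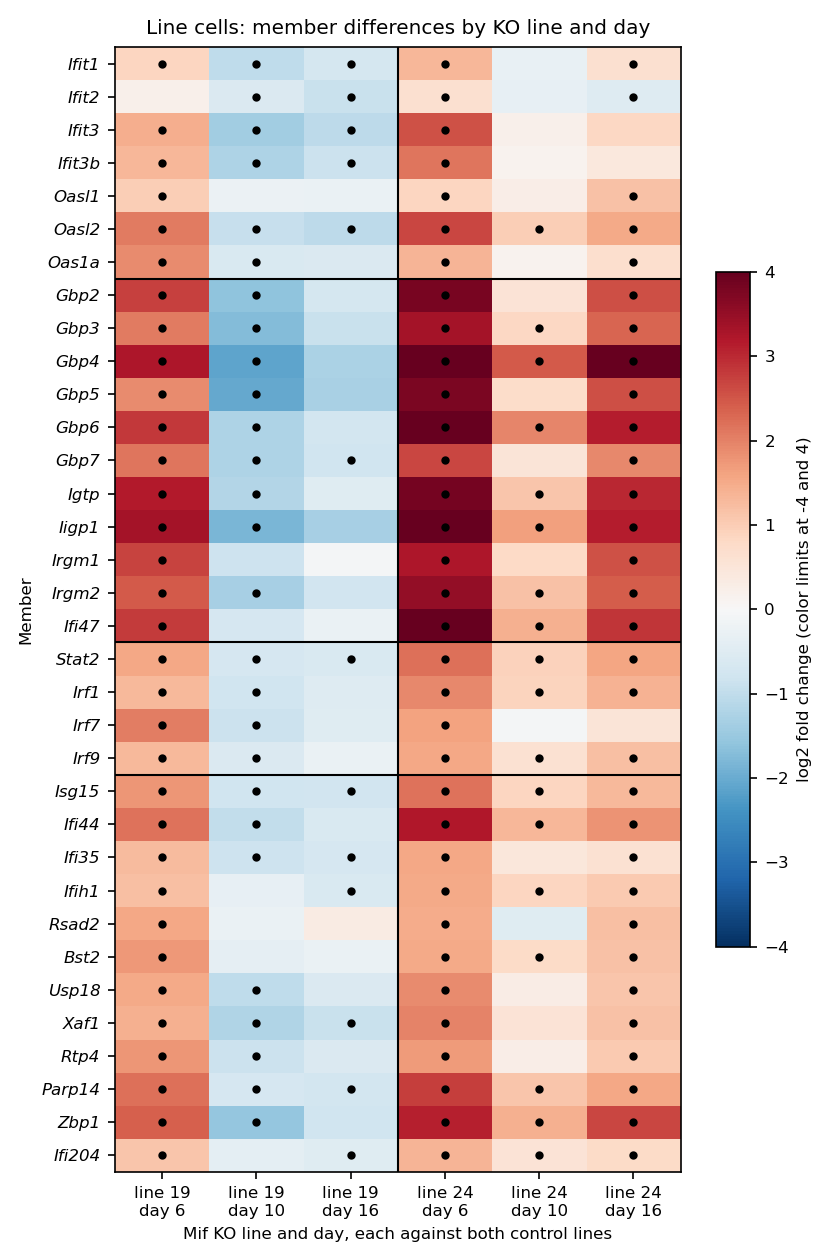
Log2 fold change of each of the 34 members in line cells of KO lines 19 and 24 against both control lines at days 6, 10 and 16; colours are limited at -4 and 4, and dots mark an edgeR adjusted p under 0.05. Line 19 is higher for 33 members at day 6 and lower for 27 at day 10 and 13 at day 16, and line 24 is higher for 34, 18 and 30.

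The mixed libraries held tumours of both groups and so give values within a library. In the library that held line 24 with line 18, the gamma-type core sum was 1509 CPM (line 24) and 53.8 CPM (line 18) at day 6, and 317 and 161 CPM at day 10. The same library held the WT tumours, whose Mif lay between 2208 and 2592 CPM and whose sum of gamma-type core genes was 989.7 CPM at day 6 and 405.7 CPM at day 10, nearer to line 24 than to line 18. In the library that held line 19 with line 15, it was 379 CPM (line 19) and 86.1 CPM (line 15) at day 6, 52.8 and 93.5 CPM at day 10, and 91.8 and 156 CPM at day 16. The KO tumour was thus the higher in both libraries at day 6, while at day 10 the libraries pointed opposite ways and at day 16 line 19 lay below line 15, with 1 tumour per line and day and no test.

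The balance of the arms is given as a description, with no test. The gamma-type sum divided by the type I sum had a median of 0.269 (line 15), 0.592 (line 18), 0.326 (line 19) and 0.424 (line 24) at day 0. At day 6 it was 0.390, 0.645, 1.49 and 2.18 in the same order, at day 10 it was 0.511, 0.810, 0.631 and 1.63, and at day 16 it was 0.637, 0.680, 0.710 and 2.40. Line 24 at days 6 to 16 and line 19 at day 6 were the medians above 1, and tumour values of line 18 at day 10 ran from 0.766 to 2.81. Within the 4 single-line libraries, the tumour days were tested against day 0 with line as a term. At day 6, 9 members rose and Ifit2 fell by 0.58 (SE 0.20, edgeR adjusted p 0.0181), against 23.5% of 12960 genes higher and 22.1% lower, with a median of 0.44. Gbp2 rose by 3.36 (SE 0.66, edgeR adjusted p 0.000153), Zbp1 by 3.15 (SE 0.68, edgeR adjusted p 0.000432) and Irf1 by 2.89 (SE 0.40, edgeR adjusted p 1.58e-06), and the others were Gbp5 (2.92), Iigp1 (2.71), Gbp4 (2.46), Igtp (2.19), Gbp3 (1.85) and Gbp7 (1.69).

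Irf1 at day 0 was 18.1 and 13.6 CPM (line 15), 24.5 CPM (line 18), 21.2 and 13.8 CPM (line 19) and 46.5 and 44.0 CPM (line 24). At day 6 it was 106, 212 and 129 CPM (line 15), 34.4, 31.3 and 33.4 CPM (line 18), 179, 190 and 132 CPM (line 19) and 204 and 349 CPM (line 24). Every line was higher at day 6 than at day 0 for Irf1, with no overlap within a line. At day 10, 8 members were higher and 0 lower (median 0.24; 24.7% and 23.3% of all genes), the 9 of day 6 without Gbp4. At day 16 it was 9 and 0 (median 0.13; 24.3% and 23.1% of all genes), with Gbp2 at 2.82, Irf1 at 2.76 and Zbp1 at 2.56. The shares of members higher on the 3 days lay near those of all genes. None of the 7 type I core genes rose on any of these days. The counts over lines left out in turn ran from 4 to 17 at day 6, 4 to 13 at day 10 and 2 to 13 at day 16. Of all genes, 2339 to 3124, 2853 to 3127 and 2800 to 3144 were higher in those fits, in the same order of days. Macrophages were at most 0.655% of the cells of a day 0 hashtag and at least 3.81% of those of a tumour day; their part in these changes was not tested.

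In macrophages, the gamma-type core was again higher in KO tumours: 11 of 11 passed, at 0.61 to 1.67 (median 1.08), together with 3 of 4 transcription factors and 6 of 12 other members, but 0 of 7 type I core genes (median 0.18; 2 at an unadjusted p under 0.05, in edgeR). That gave 20 of 34 members higher and 0 lower, against 20.2% of 9037 genes higher and 21.7% lower, with a median of 0.55 (all genes -0.01). Gbp2 in macrophages had 34.2, 69.5 and 392 CPM (lowest, median, highest) in 18 control and 34.3, 164 and 1011 CPM in 17 KO tumours, a log2 change of 1.24 (SE 0.32, edgeR adjusted p 0.00239). Iigp1 had medians of 19.8 CPM (4.28 to 93.7) and 59.98 CPM (10.1 to 170), a log2 change of 1.67 (SE 0.30, edgeR adjusted p 4.28e-05). The groups overlapped for both. Ifi47, a GTPase of the same family, rose by 0.74 (SE 0.24, edgeR adjusted p 0.0112) from medians of 55.7 to 85.1 CPM, and Gbp7 by 0.71 (SE 0.17, edgeR adjusted p 0.000878) from 54.7 to 85.1 CPM. The largest change was that of Ifi44, 1.75 (SE 0.27, edgeR adjusted p 5.43e-06): 2.78, 7.18 and 12.7 CPM in control and 0, 22.3 and 42.3 CPM in KO macrophages, with line 24 (20.4 to 42.3 CPM) above every control tumour. Markers of other cell types in the macrophage sums moved with these changes, as medians: 4 dendritic-cell markers summed to 1.61 CPM (0 to 5.90) in control and 6.32 CPM (1.91 to 12.8) in KO tumours, 4 neutrophil markers to 9.90 and 23.7 CPM, and 7 T-cell genes outside the gate to 4.64 and 9.14 CPM. Their part in the result was not tested.

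Irf1 in macrophages had medians of 62.7 CPM (40.1 to 233) in control and 123 CPM (69.2 to 285) in KO tumours and rose by 0.87 (SE 0.20, edgeR adjusted p 0.000895). Stat2 rose by 0.53 (SE 0.19, edgeR adjusted p 0.0214) and Irf9 by 0.29 (edgeR adjusted p 0.0258). Irf7, at medians of 229 and 228 CPM, had -0.11 (edgeR adjusted p 0.74). Isg15 rose by 0.68 (SE 0.25, edgeR adjusted p 0.0279), Ifi204 by 0.66 (SE 0.16, edgeR adjusted p 0.00153) and Bst2 by 0.46 (SE 0.13, edgeR adjusted p 0.00552). In the type I core the values of Oas1a (0.10), Oasl2 (0.41), Ifit3 (-0.11) and Ifit3b (-0.41, SE 0.25, edgeR adjusted p 0.191) did not pass. The gamma-type core sum at day 6 was 1609, 1639 and 1737 CPM (line 19) and 1218 and 2552 CPM (line 24). Control tumours of that day had 549, 1097 and 366 CPM (line 15) and 242, 274 and 281 CPM (line 18). At day 10 the sum ran from 177.5 CPM (line 19) to 596.1 CPM (line 24) in KO tumours. In the controls it ran from 239.2 to 366.5 CPM, apart from 1145 CPM in tumour A of line 18. At day 16 it was 963, 997 and 845 CPM (line 24) and 315, 582 and 416 CPM (line 19). The controls of day 16 lay between 252.2 and 422.1 CPM and overlapped line 19. The 20 members became 3 without line 24 (712 of all genes higher and 687 lower), 3 with library as a term (352 and 270), 13 with 1 sum per line (236 and 191) and 9 in the mixed libraries alone (429 and 315), against 1825 and 1963 of all genes in the fit reported here.

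In T cells no member was called. Of the 34 members, 18 passed the filter on low counts, and 0 were called in either direction by edgeR and 0 by DESeq2, against 3.53% of 3428 genes higher and 4.55% lower; at an unadjusted p under 0.05 in edgeR, Bst2 was higher (0.45, SE 0.18, edgeR adjusted p 0.112) and Irf7 lower (-0.49, SE 0.24, edgeR adjusted p 0.194). Bst2 in T cells had 188, 433 and 622 CPM in 15 control and 289, 559 and 926 CPM in 17 KO tumours, and Irf7 had 32.7, 103 and 243 CPM against 21.6, 71.4 and 179 CPM. Ifi47 (0.03; medians 87.6 and 84.8 CPM), Igtp (0.25; 71.5 and 84.8 CPM), Gbp7 (-0.31; 87.7 and 69.5 CPM) and Irf1 (0.06; 125 and 136 CPM) overlapped between the groups. The median over the 18 was 0.03. Control T cells were few, 756 cells against 3715 in KO tumours, and the count was 5 without the filter (80.3% of all calls higher), 3 with another hashtag call (236 and 248) and 4 without line 19 (179 and 159), against 121 and 156 of all genes in the fit reported here. The groups in macrophages and T cells were not tested against each other.

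**Figure D3:**
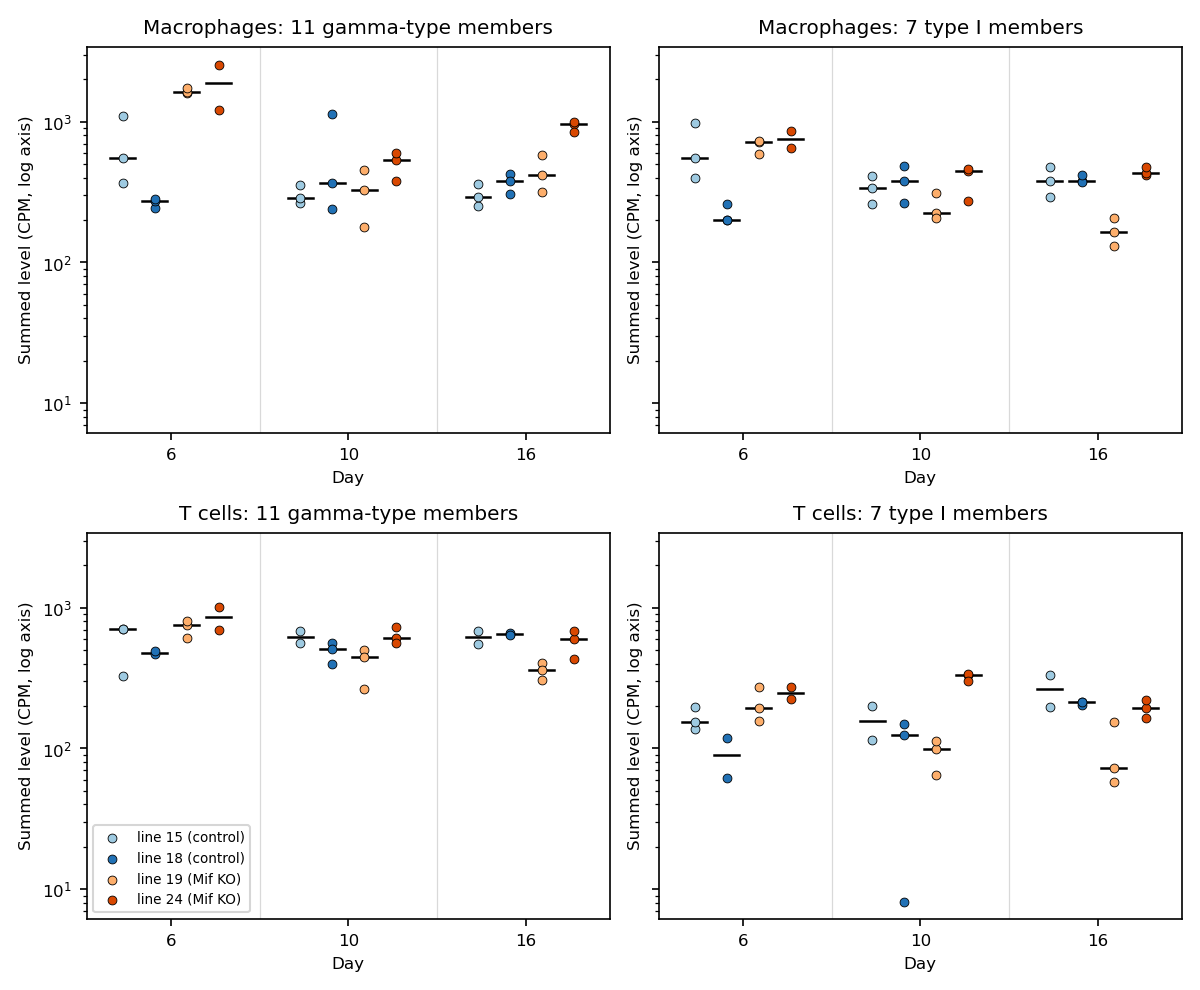
Summed CPM (log axis) of the gamma-type and type I cores in macrophages and T cells, by day, with a point for each tumour, coloured by line, and a bar at each median. For the gamma-type sum, macrophages of both KO lines lie highest at day 6 (1218 to 2552 CPM); for the type I sum the highest at day 6 is tumour B of control line 15 (987.9 CPM). T cells of the groups overlap.

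Expression of the members also differed between the cell classes of the same tumour, compared in 32 tumours with tumour as a block; no member was used in the gate. Macrophages were higher than line cells for 28 members and lower for Ifi44 (-0.78, SE 0.11, edgeR adjusted p 2.26e-09), with a median of 1.25, against 35% of 11887 genes higher and 44.1% lower. The widest were Gbp5 (3.28), Zbp1 (3.11), Ifi47 (2.97), Irf7 (2.55) and Gbp4 (2.5). Irf7 had a median of 40.9 CPM in line cells, 223 CPM in macrophages and 84.1 CPM in T cells, and was higher in macrophages in 32 of 32 tumours. Ifi44 had medians of 19.3, 9.60 and 6.83 CPM in the same order, and was higher in macrophages than in line cells in 3 of 32. Irf1 (-0.23), Iigp1 (-0.12), Ifit1 (-0.10), Bst2 (-0.06) and Ifit3b did not pass.

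T cells were higher than line cells for 17 members and lower for 9 (median 0.32), against 28.7% and 43.0% of all genes. They were higher for Ifi47 (2.69), Gbp4 (2.66), Zbp1 (2.64) and Gbp6 (2.20), and lower for Ifi44 (-1.54), Iigp1 (-1.22), Oasl2 (-1.14), Oasl1 (-1.07), Ifi204 (-1.03) and Bst2 (-0.77). Against macrophages, T cells were higher for Gbp6 (1.09, SE 0.26, edgeR adjusted p 0.000229) and Igtp (0.59, edgeR adjusted p 0.0255) and lower for 25 members (median -0.74; 23.4% and 30.2% of all genes), most of all Oasl1 (-2.86), Ifi204 (-2.48) and Rsad2 (-2.07). The medians of the type I core sum over all lines and days were 389 CPM in macrophages, 233 CPM in line cells and 179 CPM in T cells. Those of the gamma-type sum were 582 CPM in T cells, 419 CPM in macrophages and 163 CPM in line cells, but T cells exceeded macrophages in only 19 of 32 tumours, and of the 11 gamma-type genes 2 were higher and 5 lower in T cells than in macrophages. These class contrasts share samples with each other.

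**Figure D4:**
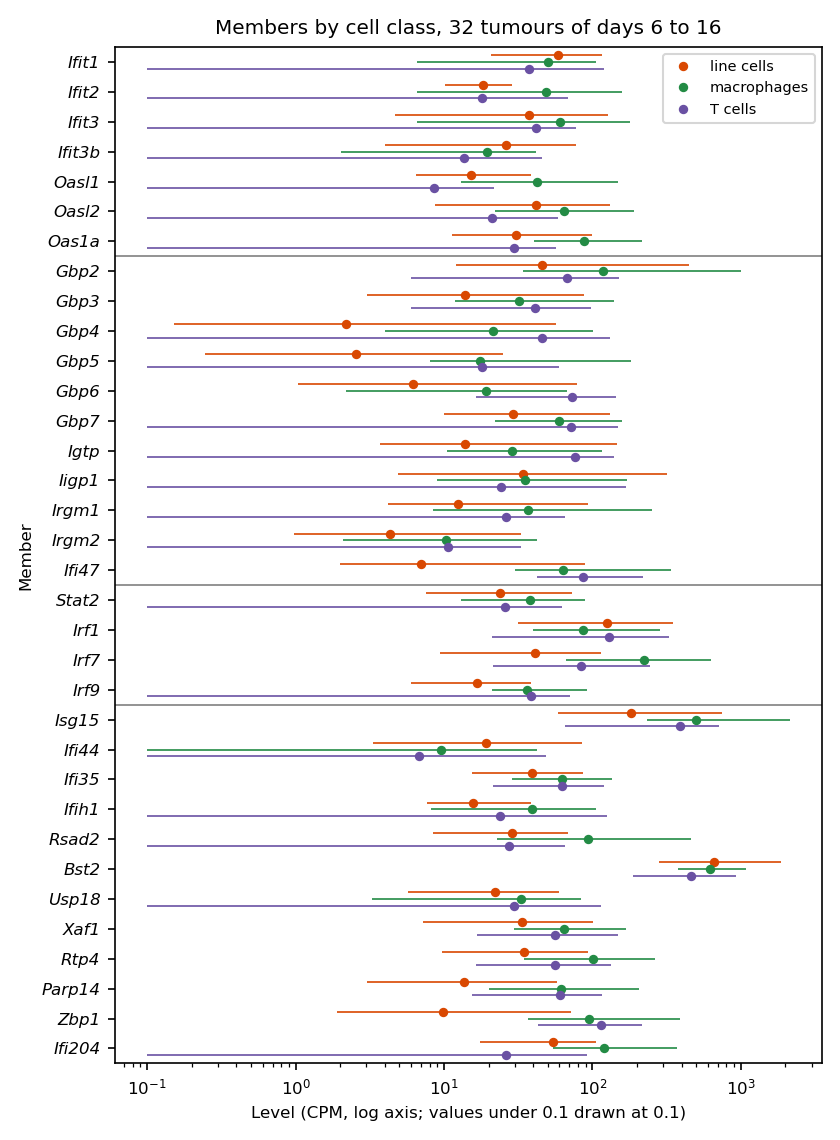
CPM of each member (log axis) in line cells, macrophages and T cells of the same 32 tumours, as the median with a line from the lowest to the highest tumour; values under 0.1 are drawn at 0.1. Macrophages have the highest median for Irf7 (223 CPM) and Isg15 (500 CPM), T cells for Gbp6 (72.5 CPM), and line cells for Ifi44 (19.3 CPM).

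Line 24 came closest to its macrophages. The gamma-type sum of its line cells was 91.2% of that of macrophages in the same tumour (median; 59.1% to 123%) and exceeded it in 3 of 8 tumours, against medians of 36.3% in line 15, 43.9% in line 18 and 22.1% in line 19. RNA of macrophage genes in the line-cell sums moved with this at days 6 to 16: genes of macrophages that the gate did not use stood at 1.01% of their macrophage level (line 24), against 0.25% (line 15), 0.609% (line 18) and 0.268% (line 19). T-cell genes outside the gate summed to a median of 9.48 CPM in line cells of line 24 on these days and to 1.52 to 2.57 CPM in the other lines, but also to 12.88 CPM at day 0 in the controls, whose day 0 hashtags held no gated T cell, and to 10.25 CPM at day 0 in the KO lines. All 8 macrophage markers were detected in line cells, and their sum in tumours was 44.95 to 97.6 CPM in line 24 and 9.83 to 51.1 CPM in the control lines, against 4257 to 15660 CPM in macrophages; the part of this RNA in the result was not tested.

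The share of line cells with any gamma-type UMI was also compared with each cell thinned to 1000 UMIs, leaving out shallower cells (861 in control and 1132 in KO tumours at days 6 to 16, 36 and 102 at day 0). At days 6 to 16 its median was 42.4% for line 24, with a range of 23.2% to 54.6%, and 8.73% for line 19, with a range of 4.99% to 34.6%. In the control lines it was 10.5% (7.37% to 15.3%, line 15) and 13.2% (4.23% to 39.3%, line 18). Line 18 thus overlapped line 24. The share that free RNA alone gives was not measured, since all 3 classes express these genes. Unthinned shares were 62.8% in line 24 and 32.6% in line 19. The thinned type I share was 24.3% in line 24 and 8.36% to 11.8% in the other lines. At day 0 line 24 was again highest for the gamma-type genes, at 20.04%, followed by 10.0% (line 19), 5.32% (line 15) and 5.13% (line 18).

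Of the ligands, Ifng, interferon gamma, was counted mostly in the T-cell class among the 3 classes. T cells held 2257 UMIs (203 CPM over all T cells), macrophages 37 and line cells 92 (0.194 CPM). NK cells were not analysed as a class, and the T-cell gate set no limit on NK markers. Ncr1, Klrb1c, Klre1 and Gzma summed in T cells to medians of 316.5 CPM (control) and 253.5 CPM (KO), with a highest tumour at 1510 CPM. The part of NK cells in the Ifng counts was not tested. In T cells Ifng had 8.17, 79.3 and 259 CPM in control and 82.8, 185 and 1594 CPM in KO tumours, with a log2 change of 1.11 (SE 0.36, edgeR adjusted p 0.0488). The change was positive in all 15 alternatives (0.58 to 3.22), but 9 of them lost the call, among them each line left out in turn and 1 sum per line (edgeR adjusted p up to 0.494). At days 6 to 16, T cells made up 0.494% to 3.58% of the cells of line 15 tumours, 0.290% to 3.74% in line 18, 2.08% to 11.3% in line 19 and 4.55% to 22.8% in line 24; at day 0 they were 0% in lines 15, 18 and 19 and at most 0.595% in line 24. Tumour A of line 18 at day 10, with the highest gamma-type sum of its line, had 3.74% T cells, against 0.986% and 1.54% in the other tumours of that line and day. In line 19 the T-cell share ran from 2.08% to 6.93% at day 6 and from 2.60% to 11.3% at day 10. Its tumour with 11.3% had a gamma-type sum of 52.8 CPM in line cells, the lowest of the KO tumours of day 10. Whether the members follow the T-cell share was not tested. Ifnb1, interferon beta, gave 157 UMIs in line cells (0.332 CPM; 36 in control and 121 in KO tumours), 16 in macrophages and 1 in T cells. At day 16 Ifnb1 in line cells was 0, 3.73 and 0 CPM (line 19) and 7.18, 0 and 0.458 CPM (line 24), against 1.05, 0 and 0.0926 CPM (line 15) and 0 CPM throughout line 18. It was called higher than in the controls at that day in line 19 (edgeR adjusted p 0.0276) and in line 24 (edgeR adjusted p 0.033), each with 1 tumour far above the others of its line, and not in KO against control (edgeR adjusted p 0.0586). Ifna1, Ifna2 and Ifna4 gave 0, 0 and 7 UMIs in line cells, and 0 allows up to 0.00634 CPM there (3 counts, counting error only).

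The receptors and kinases differed by line. Ifngr1, the ligand-binding chain for interferon gamma, lay between 42.4 and 68.2 CPM in line 24 (median 52.0), between 9.09 and 22.1 CPM in line 19 and between 16.8 and 48.8 CPM in the control lines. Line 24 overlapped the controls at the edge and did not overlap line 19. Over all days together, Ifngr1 was higher in line 24 than in the controls by 1.02 (SE 0.09, edgeR adjusted p 6.22e-13). It was lower in line 19 (-0.43, SE 0.09, edgeR adjusted p 7.75e-05), and higher in line 24 than in line 19 by 1.45 (SE 0.10, edgeR adjusted p 1.61e-15). By day, the highest log2 change of any receptor in line 24 against the controls was 1.204 at day 6, 1.284 at day 10 and 0.396 at day 16. At day 16 all 4 receptors lay between 0.177 and 0.396, and Ifngr1 and Ifnar1 were called higher. Whether the Ifngr1 difference changed between days was not tested. Jak2, the kinase of the gamma receptor, was higher in line 24 (0.94, edgeR adjusted p 2.8e-12) and at 0.03 in line 19. Over both KO lines, Ifnar1 (0.22), Ifnar2 (0.32), Jak1 (0.35) and Jak2 (0.48) were higher, and Ifngr1 (0.39), Ifngr2 (0.08) and Tyk2 (-0.01) did not pass.

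Of the regulators, Socs1, an inhibitor of the JAK kinases, rose by 0.67 (edgeR adjusted p 0.000499), while Socs3 (-0.38, edgeR adjusted p 0.000468) and the phosphatase gene Ptpn2 (-0.33, edgeR adjusted p 0.000323) were lower and Pias1 (0.26) did not pass. In macrophages, Jak1 (0.34), Jak2 (1.09), Socs1 (0.71) and Ptpn2 (0.38) were higher and Ifngr2 (-0.28) lower. In T cells, none of Ifngr1, Ifnar1, Ifnar2, Jak1, Jak2, Socs1, Socs3 and Ptpn2 was called by edgeR, and of these Jak2 (0.36, edgeR adjusted p 0.152) had an unadjusted p under 0.05.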

How the data were processed

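Per the labels' protocols, tumours were dissociated, hashed with TotalSeq-C antibodies, sorted for live cells and profiled with the 10x 5′ v2 kit. Raw counts of UMIs by gene and barcode were deposited, made with Cell Ranger 6.0.0 on mm10 per the submitters' processing notes, and a sheet pairing hashtags with line, day and letter. Cells with 300 genes or more and mitochondrial UMIs up to 15% were assigned to hashtags with HTODemux (Seurat 5.3.0), leaving out hashtag doublets (17.9% to 30.9%) and negatives; doublets within a tumour remain. Cells were gated on raw UMIs of markers into line cells, macrophages and T cells, and their counts were summed by tumour and class (at least 20 cells). Sums were tested with edgeR 4.0.16 (filterByExpr, TMM, glmQLFit, glmQLFTest) over all genes, with Benjamini-Hochberg adjustment and calls under 0.05. The fit was also run on simulated counts. These had no line or library effect, so that run cannot check the error rate between lines. P-values measure the spread between tumours of these lines; the sources used here do not say whether each hashtag is a separate animal. Single tumours have between 20 and 3255 cells in a class, which limits low members.

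Values are given for the 3 members with the highest mean CPM in each role and for the largest and smallest changes; Igtp, Zbp1 and some line values were named after their values were seen. Members and lists were chosen with earlier results of these data known, and the fit of line and day, the omission of tumour A of line 18 at day 10, the letter as a block and the host genes outside the gate were added after seeing the data. Alternatives were DESeq2 1.42.0, RLE scaling, no filter, each line left out, 1 sum per line, mixed libraries alone, a library term, a stricter gate, a stricter cell filter and another hashtag call.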

Additional observations from a re-analysis of the deposited data

Results flagged for a closer look

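Within groups of 4 to 6 tumours of the same label and day, 76 sums of members were examined with Dixon's criterion, which chance meets in about 1 in 20 groups, and 5 met it. The gamma-type core sum of line cells was 201.4 CPM in tumour B of line 15 at day 6, and that of macrophages of the same tumour was 1097 CPM. Tumour A of line 18 at day 10 had 976 CPM in line cells, where the next control tumour of that day had 161 CPM, and 1145 CPM in macrophages. The type I core sum of T cells was 332.2 CPM in tumour C of line 15 at day 16.

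Differences between groups also stood out by a direct test. In edgeR, 29 members were higher in line cells of line 24 than of line 19, both labelled as Mif KO and never in the same library. Of all genes, 28.7% were higher and 28.0% lower in that contrast. The log2 difference of Ifit1 between KO and control line cells was smaller in tumours than at day 0 (-1.16), the 1 member called in that contrast, where 15.9% of all genes were lower; 4 of 10 alternatives kept that call.

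The 3 WT tumours, which entered no comparison, had sums above every control tumour of the same day in several cases. In their line cells the gamma-type core summed to 989.7 CPM at day 6 and 476.1 CPM at day 16, and the type I core to 569.3 CPM and 302.4 CPM. In macrophages the gamma-type core summed to 1802 CPM at day 6 and 594.5 CPM at day 16, and the type I core to 533.9 CPM at day 10. Each is a value of 1 tumour in 1 library, with no test.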

How the results depend on the processing

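Of 217 counts of members called higher under an alternative, 184 stayed within 1.5 times the reported count and 33 did not. For T cells against macrophages the members lower were counted. A count of 0 that stayed at 0 was taken as unchanged. Other members lower, such as those of line 19 at days 10 and 16, did not enter these counts. Of 2886 values of single members, 2626 stayed on the same side of the threshold (2532 with the same sign, and 94 that were not called in either fit and changed sign), 146 lost the call, 109 gained it and 5 with a call in either fit reversed: Irf1 over all days (-0.11 to 1.25 over lines left out), Gbp4 (-2.58 to 2.63) and Iigp1 (-2.36 to 2.03) at day 10, and Oasl2 (-1.08 to 1.52) and Gbp4 (-1.31 to 4.20) at day 16, each at its lowest without line 24. Counts of members higher in KO line cells were 0 with 1 sum per line, 0 in the mixed libraries alone, 0 with a library term and 1 to 33 over lines left out; in macrophages they were 13, 9, 3 and 3 to 24. In T cells they were 5 without a filter, 3 with the other hashtag call and 0 to 4 over lines left out. Without a filter the all-gene median moved to 0.20 and 80.3% of calls were higher. Over lines left out, 2473 to 3976 of all genes were higher in line cells, 712 to 1816 in macrophages and 16 to 179 in T cells. By day, lines left out in turn gave 0 to 22 at day 0 (14 with the other hashtag call), 7 to 34 at day 6, 0 to 11 at day 10, 0 to 29 at day 16 and 0 for the difference from day 0. Against day 0 they gave 4 to 17 at day 6 (15 without a filter), 4 to 13 at day 10 and 2 to 13 at day 16. Of all genes, 2914 were higher in KO at day 0 with the other hashtag call. Without a filter, 3244 were higher at day 6 against day 0. Line 19 against the controls gave 6 without tumour A of line 18 at day 10, and at day 16 it gave 1 higher and 29 lower without a filter. Between classes the counts over lines left out were 28 for macrophages and 17 to 18 for T cells, each against line cells, and 21 to 24 lower in T cells than in macrophages. Of all genes, 4096 to 4377, 3190 to 3643 and 3091 to 3323 were called in those directions, in the same order. The cause of these changes was not tested. The lines share no replicate number in the labels, and the hashtag letters A to C recur in both groups but are not said to mark a shared animal or batch. Tumours A and B lay in the single-line libraries and tumours C in the mixed ones, so the letter also marks the kind of library. A block for the letter does not separate line from library. Tumours of 1 letter and day deviated together with correlations over 0.1 across genes in 4 of 9 pairs in line cells, 1 of 9 in macrophages and 0 of 9 in T cells. With the letter as a replicate block, chosen after seeing the data, the counts of members higher were 28 in line cells, 20 in macrophages and 0 in T cells. Of all genes, 3450 were higher and 2973 lower in line cells, 1959 and 1952 in macrophages, and 123 and 146 in T cells. In T cells, 18 members passed the filter on low counts.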

Other observations

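The members of the WT tumours, which the labels put in no group, were at the following levels in line cells. Igtp was 98.6 CPM at day 6, 35.4 CPM at day 10 and 42.5 CPM at day 16. Oas1a was 104 CPM, 44.0 CPM and 37.6 CPM at the same days, and Rsad2 was 69.6, 55.1 and 42.3 CPM. Irf9 was 30.1, 21.7 and 21.1 CPM. Mif in these tumours was 2436, 2592 and 2208 CPM. Ifng in their line cells was 0.601, 0.652 and 0.819 CPM.

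Ifng in line cells was above 0 in every line 24 tumour (0.352 to 2.53 CPM), and its median over the 21 control tumours was 0 CPM (highest 0.367 CPM). In edgeR, Ifng was called higher than in the control lines in line 19 as well as in line 24. At days 6 to 16, T-cell genes outside the gate summed to a median of 9.48 CPM in line cells of line 24, against 1.52 to 2.57 CPM in the other lines, and at day 0 to 12.88 CPM in the controls and 10.25 CPM in the KO lines. The part of that RNA in these Ifng counts was not tested.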
